A study of Mus musculus with 4 samples.

Results

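Pericytes are the mural cells that sit on capillaries and small venules inside the basement membrane they share with the endothelium. Endothelial PDGF-B recruits them through the receptor encoded by *Pdgfrb*, Notch signals from the endothelium maintain them through *Notch3*, and an ATP-sensitive potassium channel together with guanylate cyclase sets their tone. On larger vessels they grade into smooth muscle cells, which carry the contractile proteins.

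In the E16.5 mouse penis, pericytes were taken as the cells in which at least 3 of 6 genes, *Rgs5*, *Kcnj8*, *Abcc9*, *Notch3*, *Higd1b* and *Cspg4*, had a UMI (unique molecular identifier, 1 captured mRNA molecule) and in which fewer than 3 of 6 endothelial genes, *Pecam1*, *Cdh5*, *Kdr*, *Emcn*, *Tie1* and *Egfl7*, had one. Kept cells held 1000 to 10000 UMIs, with at most 25% from mitochondrial and at most 25% from hemoglobin genes. The rule found 340 pericytes among 33704 kept cells of 47040 barcodes. The cells were chosen by the expression of these 12 genes, so these levels, and every other difference between pericytes and the remaining cells, are given as a description without a test.

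The study compared single-cell mRNA of 2 control samples of penis (DTA-, embryos with the floxed diphtheria toxin allele but no *Nr5a1-Cre*; labelled WT) with that of 2 samples from embryos carrying both the toxin allele and the *Nr5a1-Cre* transgene (DTA+), all male and at E16.5. By the study's account of its crosses, ablated embryos also carry a Cre-dependent *tdTomato* reporter at the other *Rosa26* allele, which the labels and its description of the control do not mention. Its methods also state in general that the animals sequenced as single cells had both the Cre transgene and this reporter, while the control is described without Cre, so which alleles the DTA- samples carried is not settled by these sources. The question was how the loss of the *Nr5a1* lineage, cells that reach the penis from outside it, affects the other cells. The transgene is also active in the adrenal glands, which were missing in DTA+ embryos, and in the testes, which were small, so effects of lost neighbouring cells and of changed hormone supply cannot be told apart. The labels do not say how many embryos or litters each sample drew on. Tests take these 4 samples as the replicates. edgeR shares its estimate of spread between genes, so a very small p-value does not measure how a single gene varied between samples.

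The libraries held 73577028 and 53654435 UMIs in DTA- and 50794318 and 50779551 in DTA+. The DTA- samples gave 47 and 101 pericytes with 329712 and 597845 UMIs in all, the DTA+ samples 114 and 78 with 743349 and 510490. Pericytes were deeper than the cells outside the rule. Their median was 7337 and 5831 UMIs in DTA- and 6357.5 and 6705.5 in DTA+, against 5057, 4227.5, 3659 and 3662 in the other kept cells. The first DTA- sample stood apart: it had the fewest pericytes, and its pericytes held 564 CPM (UMIs scaled to 1000000 per sample and population) summed over 7 mast cell genes, against 31.8, 37.7 and 9.79 in the other samples. *Tpsb2*, a mast cell tryptase, was the most abundant of these, and *Fcer1a*, a subunit of the IgE receptor, was at 0 in every sample. Hemoglobin and other erythroid genes also had their highest sum there. Results that rest on the first DTA- sample are therefore given with and without it.

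The barcodes of the 4 libraries overlapped in 31 to 48 barcodes per pair of libraries, and 1, 1, 4 and 1 pericytes had a barcode found in another library (order: first and second DTA-, first and second DTA+, as in all lists of 4 values). No kept cell had 3 genes of both sets of 6, whereas 6, 6, 14 and 6 cells above 10000 UMIs did. Another 41, 29, 45 and 37 cells met the gene rule but exceeded 10000 UMIs.

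The number of cells decreased steeply from 0 to 2 detected pericyte genes and levelled off from 3 upwards. Just outside the rule, 112, 134, 116 and 162 cells had 2 of the 6 genes. Just inside, 11, 15, 23 and 17 cells had 3 of them. *Rgs5*, a regulator of G protein signalling and the best known pericyte marker, stood at 35.3, 31.2, 39.1 and 46.9 CPM in the cells with 2 genes and at 939, 484, 1190 and 1211 CPM in those with 3. *Col1a1*, the fibroblast collagen, ran the other way, from 2217, 3658, 4803 and 2594 CPM outside to 1927, 3106, 1164 and 1339 CPM inside. In cells with 4 of the genes *Col1a1* was at 191, 1071, 329 and 372 CPM, so the cells at the edge carried more fibroblast mRNA than those further in.

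**Figure D1:**
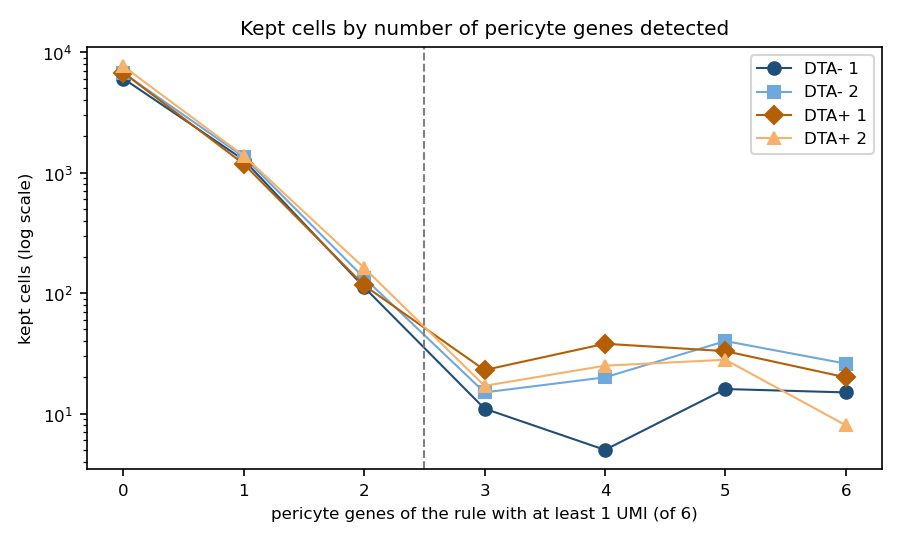
Kept cells (y axis, log scale) by the number of the 6 pericyte genes with at least 1 UMI (x axis), 1 line per sample. The dashed line marks the rule, and beyond it the curves flatten instead of falling further: between 5 and 40 cells per sample had each number of genes from 3 to 6, against 112 to 162 with 2.

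*Kcnj8* encodes the pore and *Abcc9* the regulatory subunit of the ATP-sensitive potassium channel of pericytes, and the genes are neighbours on chromosome 6, 16247 bases apart. *Gucy1a1* and *Gucy1b1*, the subunits of the receptor for nitric oxide, likewise lie 17737 bases apart on chromosome 3. For 3 of these channel and cyclase genes the bases before the transcript are shown. The sequences are from RefSeq on GRCm38.p6, minus strand, and end just before the transcript start (before the more upstream of the RefSeq and GENCODE starts for *Abcc9*). Capitals mark TGGGAA, the core letters bound by RBPJ, the DNA-binding partner of Notch, searched on both strands; *Kcnj8* has them from its first transcribed base, outside the stretch shown.
Abcc9, chr6:142702316-142702524: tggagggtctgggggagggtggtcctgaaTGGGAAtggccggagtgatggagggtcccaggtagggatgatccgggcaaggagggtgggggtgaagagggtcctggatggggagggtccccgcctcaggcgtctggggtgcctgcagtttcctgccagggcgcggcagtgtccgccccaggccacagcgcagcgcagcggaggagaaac
Kcnj8, chr6:142571615-142571864: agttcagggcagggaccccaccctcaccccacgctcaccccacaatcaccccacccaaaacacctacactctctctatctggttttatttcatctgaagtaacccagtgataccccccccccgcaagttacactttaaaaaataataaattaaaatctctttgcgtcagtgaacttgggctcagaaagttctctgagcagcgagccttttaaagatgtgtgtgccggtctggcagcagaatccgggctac
Gucy1b1, chr3:82074712-82074961: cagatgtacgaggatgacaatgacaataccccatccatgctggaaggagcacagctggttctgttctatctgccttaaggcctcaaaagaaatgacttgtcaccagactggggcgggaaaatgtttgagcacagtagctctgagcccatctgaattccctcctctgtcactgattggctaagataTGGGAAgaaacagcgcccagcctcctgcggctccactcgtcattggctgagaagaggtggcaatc
The match in *Abcc9* starts 221 bases before the RefSeq transcript start and that in *Gucy1b1* 65 bases before it.

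Promoters of 300 bases (250 before and 50 after the start) were at hand for 5 of the 6 pericyte genes of the rule, and 2 of them, *Abcc9* and *Kcnj8*, held TGGGAA on either strand. Of 25 further pericyte markers, 13 had a promoter, and 9 of them held these letters: *Art3*, *Colec11*, *Ebf1*, *Gucy1a1*, *Gucy1b1*, *Mfge8*, *P2ry14*, *Steap4* and *Vtn*. The letters occurred in 28.3% of all 27025 genes with a promoter of this length. Counted by promoter, since some genes have several, the shares were 45% of the 20 promoters of these markers and 25.6% of all 32851. A match is a description of the letters and not a binding site.

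All 6 pericyte genes of the rule were far higher in pericytes than in the other kept cells of every sample. *Rgs5* reached 2754, 3084, 2691 and 2639 CPM in pericytes, against 1.49, 2.00, 4.96 and 4.39 CPM in the cells outside the rule. It had a UMI in 93.6%, 90.1%, 96.5% and 92.3% of pericytes. In 470 cells with at least 3 macrophage genes, where it should be absent, the share was 0.638%. *Kcnj8* stood at 570, 353, 494 and 451 CPM and *Abcc9* at 412, 475, 451 and 376 CPM. *Notch3*, the mural Notch receptor, was at 379, 323, 270 and 282 CPM. *Cspg4*, the proteoglycan NG2, had 194, 212, 140 and 139 CPM and with a log2 difference of 2.65 to 3.12 was the least restricted of the set. *Higd1b*, a mitochondrial protein of pericytes, varied most between samples, with 258, 500, 170 and 131 CPM, and was below 0.2 CPM outside the rule in each of them. The endothelial genes of the rule were at most 45.5 CPM in pericytes, led by *Egfl7* (45.5, 35.1, 22.9 and 23.5 CPM).

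Counting genes of the rule too, 4611 genes had at least 20 CPM in the pericytes of every sample. Of these, 237 were at least 2-fold higher and 94 at least 2-fold lower than in the other kept cells in all 4. The genes outside the rule that stood out most, ranked by their smallest log2 difference over the samples (10 CPM added), were *Itga1*, *Acta2*, *Gucy1a1*, *Rasgrp2*, *Gm13889*, *Cox4i2*, *Ccl11*, *Cryab*, *Sept4*, *Rasl11a*, *Nrarp*, *Apold1*, *Mcam*, *Morrbid* and *Gucy1b1*. *Itga1*, the collagen-binding integrin, reached 704, 935, 1080 and 666 CPM against at most 28.4 CPM outside the rule. *Gucy1a1* had 761, 768, 1043 and 662 CPM against 13.4 to 25.8, and *Gucy1b1* 240, 231, 265 and 180 CPM against 8.04 to 12.7. *Ccl11*, the chemokine eotaxin, had 191, 179, 322 and 390 CPM against at most 2.38 CPM in the pool of other kept cells. *Nrarp* and *Apold1* were about as high in endothelial cells, with mean log2 differences of 0.56 and -0.09 to them.

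Of the 25 further pericyte markers, 24 were higher in pericytes than in the other kept cells of every sample, *P2ry14* being the exception, and 18 were at least 2-fold higher. *Pdgfrb*, the receptor for PDGF-B, was at 491, 420, 464 and 345 CPM against 81.8 to 120 CPM outside the rule. The respiratory chain components *Cox4i2* (1247, 1149, 958 and 1032 CPM) and *Ndufa4l2* (1483, 1519, 991 and 1166 CPM), which are induced under low oxygen, were 2.41 or more on the log2 scale above the other cells. *Ebf1*, a transcription factor, was at 1298, 1278, 1250 and 1256 CPM with hardly any spread. *Foxs1*, *Heyl* and *Aoc3* were present in every sample, and *Vtn*, which encodes vitronectin, had 30.3, 26.8, 25.6 and 37.2 CPM with at most 0.03 CPM outside the rule. *Steap4* and *Colec11*, markers of pericytes in other organs, stayed at or below 11.7 CPM. Markers outside the rule were thus those of the label.

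**Figure D2:**
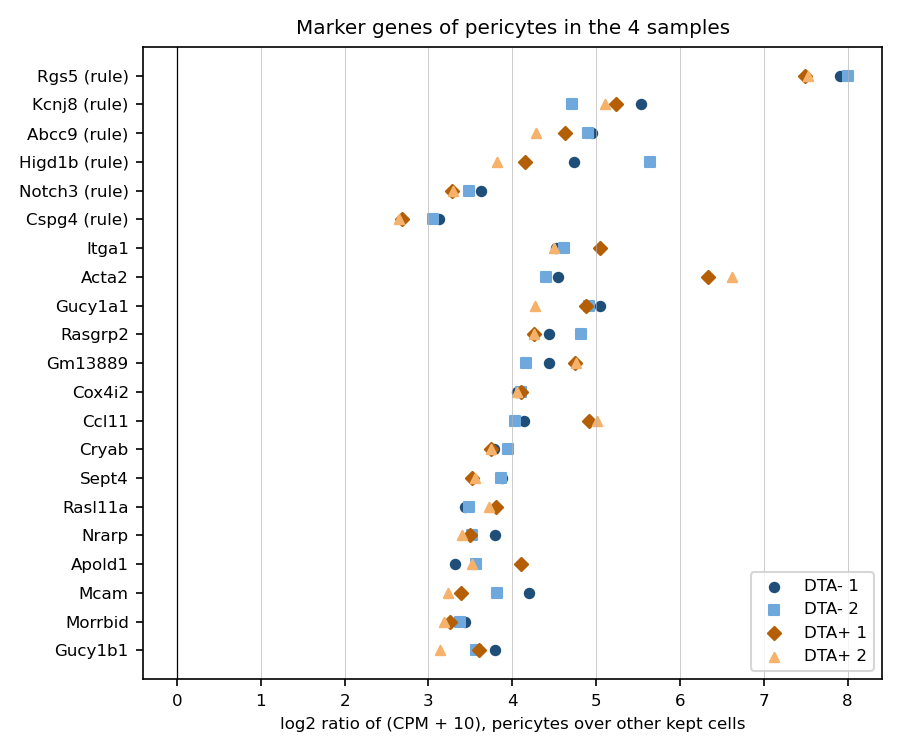
Log2 ratio of CPM plus 10 in pericytes over the other kept cells (x axis) for the 6 genes of the rule and the 15 leading genes outside it, 1 symbol per sample. Every symbol lies above 0; *Acta2* spreads most, from 4.40 to 6.62, and lies higher in the DTA+ samples, where its level outside the rule was lower.

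Markers of other cell types differed by list. Erythroid genes, led by *Hbb-bs*, were not low: they summed to 8529, 3401, 4567 and 151 CPM in pericytes and to 4158, 3683, 2391 and 933 CPM in the other cells. The mast cell sum of the first DTA- sample, 564 CPM, was like the 566 CPM of its other cells. *Cldn5*, *Tek* and *Sox17* of 13 additional endothelial genes were at 0 in all pericytes, and the most abundant of that list, *Esam*, a junction protein, had 112, 119, 84.8 and 116 CPM. None of 12 fibroblast genes was above the other cells in every sample; *Col3a1*, the most abundant, had 2081, 2288, 1694 and 1743 CPM against 2526 to 5788 CPM. The summed fibroblast level was 4176, 5692, 4258 and 3986 CPM in pericytes and 10327, 15996, 14518 and 10391 CPM outside the rule. Macrophage genes summed to 30.3, 5.02, 29.6 and 13.7 CPM, with *Mrc1* and *Csf1r* at 0, and epithelial genes to 84.9, 10.0, 14.8 and 3.92 CPM, with *Cdh1*, *Esrp1*, *Krt18* and *Trp63* at 0. Among 9 Schwann cell genes *Sox10*, *Cdh19* and *Dhh* were at 0, but *Fabp7*, a lipid-binding protein, was found in pericytes at 164, 82.0, 32.3 and 82.3 CPM, against 12.4 to 19.8 CPM outside the rule. Skeletal muscle genes had 7 of 9 members at 0, *Myod1* and *Myog* among them, and summed to at most 31.8 CPM. Of 7 cartilage genes, *Col11a1* was the most abundant and *Matn1* at 0, and the list summed to 63.6 to 99.5 CPM, below the 170 to 192 CPM of the other cells. Cells with at least 3 genes of another type numbered 4, 0, 2 and 0.

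Smooth muscle genes were shared between pericytes and the contractile end of the mural lineage. Of 18 such genes, 16 were higher in pericytes than in the other kept cells of every sample and 11 at least 2-fold higher. *Acta2*, smooth muscle actin, had 2114, 2179, 2873 and 2445 CPM in pericytes. In 4, 15, 21 and 14 pericytes (8.51%, 14.9%, 18.4% and 17.9%) at least 3 of *Myh11*, *Cnn1*, *Actg2*, *Lmod1*, *Des* and *Synpo2* had a UMI. These contractile pericytes carried 11180, 9085, 8576 and 7391 CPM of *Acta2*, and the remaining pericytes 951, 804, 1285 and 1274 CPM. *Tagln*, an actin-binding protein, behaved alike, with 3976, 3656, 3624 and 3030 CPM against 168, 337, 464 and 359 CPM. The pericyte markers differed in direction between the 2 sets of cells. *Rgs5*, a gene of the rule, was higher in the contractile pericytes (2909, 4210, 3093 and 3143 CPM) than in the others (2734, 2860, 2578 and 2519 CPM) of every sample, as was *Notch3*. *Pdgfrb*, the PDGF receptor, was lower in every sample, with 454, 262, 210 and 225 CPM in the contractile and 496, 451, 535 and 373 CPM in the other pericytes. *Abcc9* was also lower in all 4 (294, 353, 259 and 307 against 428, 499, 504 and 392 CPM), and *Kcnj8* in 3 of 4. In the first DTA- sample these levels rest on 4 contractile cells. Contractile pericytes are so named because they met the rule. Whether they are smooth muscle cells of vessels was not tested.

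A separate set of cells held 3 of the same contractile genes but did not meet the pericyte rule, and had *Rgs5* at 0, 3.18, 0 and 174 CPM. Their *Acta2*, at 3889, 3334, 2979 and 1826 CPM, was below that of the contractile pericytes in every sample. *Myh11* was at 697, 940, 818 and 464 CPM, against 881, 856, 864 and 573 CPM in the contractile pericytes. The separate set numbered 78, 119, 18 and 6 cells. The DTA- and DTA+ samples did not overlap in this number, while contractile pericytes numbered fewer in the first DTA- sample than in any other. Shares of cells depend on which cells were captured, and fewer cells of a type cannot be told apart from cells lost in dissociation.

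Variation among pericytes was measured after every cell had been thinned to 2000 UMIs, which 44, 98, 112 and 76 pericytes (330 of 340) reached. Over 1954 genes with at least 0.1 UMI per thinned cell in every sample, the median ratio of variance to mean was 1.05, where 1 is the spread of counting alone. The 10 highest medians over the samples belonged to *Hbb-bs* (168), *Acta2* (15.4), *Malat1* (14.3), *Tagln* (8.97), *Gm42418* (6.65), *Ccl2* (5.57), *Ptn* (5.20), *Fos* (5.20), *Dcn* (5.03) and *Mgp*. They name contractility (*Acta2*, *Tagln*), an immediate-early gene (*Fos*), a chemokine (*Ccl2*), matrix genes of fibroblasts (*Dcn*, *Mgp*), and hemoglobin, whose ratio was 262, 126 and 210 in 3 samples and 0.867 in the second DTA+ sample. *Ptn*, a heparin-binding growth factor, ranged from 1.32 to 17.6, and in the first DTA- sample 101 of its 205 UMIs lay in 1 cell. Of the pericyte genes of the rule, *Rgs5* had a ratio of 3.68 and rank 17, *Higd1b* 1.47 and rank 183, *Notch3* 1.22, *Kcnj8* 1.20, *Abcc9* 1.14 and *Cspg4* 1.14. Their detection chose the cells, which shapes these ratios, so nothing is read from them.

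The share of pericytes was compared between the genotypes. Pericytes made up 0.618% (95% exact binomial interval 0.455 to 0.822) and 1.20% (0.977 to 1.45) of kept cells in DTA- samples, and 1.37% (1.13 to 1.65) and 0.833% (0.659 to 1.04) in DTA+ samples. The genotypes overlapped, and the samples of 1 genotype differed by more than their means did: the means were 0.908% ± 0.410 (SD, n = 2) and 1.10% ± 0.382 (SD, n = 2). An exact two-sided permutation test over the samples gave p = 0.667, and 2 against 2 cannot go below p = 0.333. Relative to the endothelium they cover, there were 37.9 and 80.2 pericytes per 100 endothelial cells in DTA- and 91.9 and 77.2 in DTA+ samples, a difference of 25.6 (exact permutation p = 0.667). Without the first DTA- or the first DTA+ sample the difference in share was -0.0949 and -0.0753 percentage points, and without the first DTA- sample the difference per 100 endothelial cells was 4.42. The intervals cover counting error only. When the rule was applied again after thinning every cell to 2000 UMIs, the differences were -0.00819 percentage points and -1.55 pericytes per 100 endothelial cells. The upper limit of 10000 UMIs took the largest part of the first DTA- sample, 41 of the 88 cells that met the gene rule there. Without that limit, an alternative chosen after seeing the data, the shares were 0.996% and 1.45% in DTA- and 1.81% and 1.17% in DTA+ samples, which still overlapped. Per 100 endothelial cells there were then 40.4 and 61.03 against 81.1 and 73.2 pericytes, which did not overlap (difference 26.5, exact permutation p = 0.333, the smallest that 2 against 2 allow). The exact permutation test of 2 samples against 2 therefore cannot show a difference in share, and no other test of it was run.

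**Figure D3:**
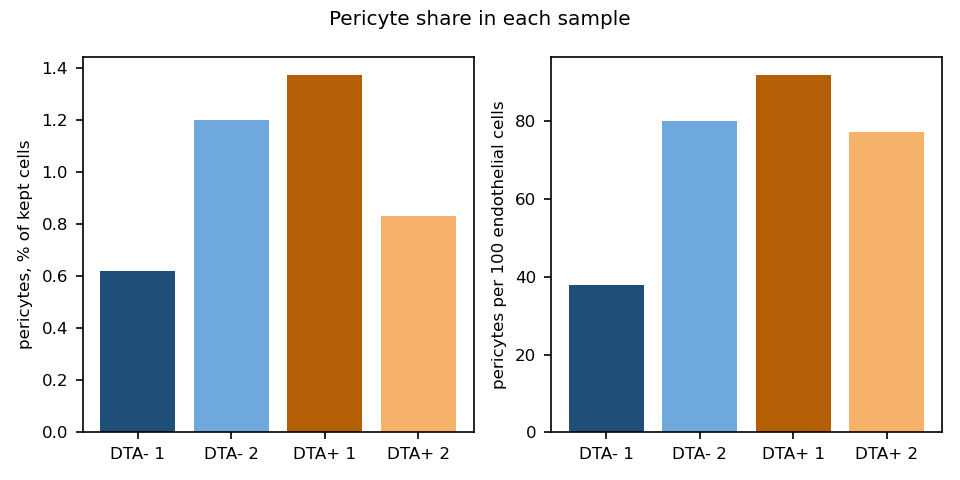
Pericytes as a percent of kept cells (left) and per 100 endothelial cells (right), 1 bar per sample. The first DTA- sample is lowest in both panels (0.618% and 37.9), and the second DTA- sample lies among the DTA+ samples.

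To ask how the ablation changed pericytes, their UMIs were summed per sample and tested across 6492 genes with edgeR's quasi-likelihood test. At an adjusted p under 0.05 (Benjamini-Hochberg), 2 genes (0.0308%) differed: *Igfbp2* was lower (0.0154% called lower) and *tdTomato* higher (0.0154% called higher) in DTA+. Neither was called by DESeq2, with the replicate number as a block, at no more than 7500 UMIs or after thinning to 2000 UMIs. Unadjusted p was under 0.05 for 188 genes higher and 152 genes lower. When a sample is left out, 1 sample stands alone in its group and is assumed to vary like the other group. edgeR also estimated the spread differently in these fits. For *Igfbp2* the SE was 0.419 without the first and 0.271 without the second DTA- sample. Their calls and p-values in pericytes therefore cannot be compared, and effect sizes are given. The median log2 fold change of all genes was 0.00. In the same test endothelial cells (124, 126, 124 and 101 cells) had 0 called of 6860 genes, with 298 at an unadjusted p under 0.05, and all other kept cells 86 called of 16368 (0.525%).

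*Igfbp2* (chr1:72824503-72852474, plus strand, GRCm38) encodes a secreted binding protein of the insulin-like growth factors. Its level in pericytes was 492 and 335 CPM (TMM-corrected, as for all levels in the genotype comparison) in DTA- and 84.9 and 31.3 CPM in DTA+ samples. Every DTA+ value lay below every DTA- value, and the log2 fold change was -2.72 (SE 0.321, edgeR adjusted p = 0.00782). The counts behind these levels were 157, 191, 61 and 15 UMIs in 15, 28, 22 and 8 pericytes, and in the first DTA- sample 48 of them lay in 1 cell. Without the first or the second DTA- sample the log2 fold change was -2.44 and -2.99, and without the first or the second DTA+ sample -3.69 and -2.25. In the cells with at least 4 of the pericyte genes it was -1.58 (edgeR adjusted p = 0.00673). *Igfbp2* fell in the other cells too, from 1090 and 1007 CPM to 380 and 393 CPM (uncorrected; log2 fold change -1.52, edgeR adjusted p = 0.00520). The change in pericytes was lower than that in the other cells by an interaction term (difference -1.17, SE 0.215, edgeR adjusted p = 3.17e-05), but the difference did not pass without the second DTA+ sample (-0.726, edgeR adjusted p = 0.383) and was -0.08 in cells with at least 4 pericyte genes (edgeR adjusted p = 1.0). In uncorrected levels, endothelial cells had 87.3, 196, 54.5 and 94.0 CPM. *Igfbp2* UMIs were found in 31.9%, 27.7%, 19.3% and 10.3% of pericytes, and in 10.6%, 15.6%, 10.4% and 8.77% of the macrophage-gate cells of the same libraries, whose median depth over all samples was 5327.5 UMIs against 6464 in pericytes. Free RNA from the abundant other cells can give such a background, and in the second DTA+ sample the pericyte share was close to it. Uncorrected, the macrophage gate had 137, 116, 70.7 and 43.2 CPM, and pericytes 476, 319, 82.1 and 29.4 CPM. Both DTA+ levels in pericytes were thus near that of the gate, and the second was below it. The part of such a background in the change was not tested.

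*tdTomato*, the reporter sequence added to the reference, had 0 UMIs in both DTA- samples and 27 and 19 UMIs in the pericytes of the DTA+ samples (37.6 and 39.6 CPM), at least 11.3-fold higher when 3 counts over the DTA- group are taken as the floor (edgeR adjusted p = 0.0291). The fitted log2 fold change, which depends on the prior count where a group is at 0, was 7.51 without the first DTA- sample, against 7.34 with all samples. *tdTomato* was found in 21.9% and 19.2% of DTA+ pericytes. The shares were 18.5% and 22.8% in endothelial cells, 22.6% and 18.4% in the macrophage gate and 20.8% and 18.3% in 447 cells with at least 3 epithelial genes. The share in pericytes lay within the range of these populations in both samples, and is not read as expression particular to pericytes. The sources differ on whether DTA- animals carried the reporter allele and Cre; if they carried only 1 of them or neither, the difference is one of alleles carried and not a response to the ablation. The study reports a low level of *tdTomato* mRNA in most cells and describes this expression as leaky. Free RNA and transcripts from the allele within each cell were not told apart here. *Nr5a1* itself had 0 UMIs in all pericytes. *Gt(ROSA)26Sor*, the transcript of the locus that holds the toxin and reporter alleles, had 12.1 and 18.4 CPM in DTA- and 68.6 and 62.7 CPM in DTA+ pericytes (uncorrected). Endothelial cells had 15.1 and 24.4 against 44.9 and 82.9 CPM, and the other kept cells 13.96 and 17.54 against 70.98 and 85.76 CPM. In the macrophage and epithelial gates both DTA+ samples were likewise above both DTA- samples. The difference is therefore not read as particular to pericytes.

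The genes with the next lowest p-values (mean of at least 50 CPM, no overlap between genotypes) did not pass the test and are given as values. Among all tested genes, 17.3% did not overlap with DTA+ higher and 17.7% with DTA+ lower. The 10 with higher levels were *Adamts1*, *Rgs16*, *Ccl2*, *Has2*, *Btg2*, *Fosl2*, *Ccl11*, *Tiparp*, *Csrnp1* and *Gadd45b*, with edgeR adjusted p from 0.102 to 0.141. *Adamts1*, a secreted protease that cleaves versican, had 157 and 170 CPM in DTA- and 437 and 327 CPM in DTA+ (log2 fold change 1.22, SE 0.205). *Has2*, which makes hyaluronan, had 21.9 and 35.1 CPM in DTA- and 149 and 75.1 CPM in DTA+ (log2 fold change 1.94, SE 0.380). *Ccl2*, a monocyte chemokine, had 110 and 237 CPM in DTA- and 459 and 459 CPM in DTA+ (log2 fold change 1.34, SE 0.261), and *Ccl11* 197 and 188 against 333 and 415 CPM. *Btg2*, an immediate-early gene, was at 743 and 1029 against 1728 and 1487 CPM.

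Those with lower levels included *Ptn*, *Sostdc1*, *Col6a3*, *Pmp22*, *Mcam*, *F2r*, *Limd1*, *Tmem176a* and *Mgp*, with edgeR adjusted p from 0.128 to 0.594. *Ptn* had 643 and 455 CPM in DTA- and 276 and 209 CPM in DTA+ (log2 fold change -1.16, SE 0.212). In the first DTA- sample 101 of its 205 UMIs lay in 1 cell. *Sostdc1*, a secreted antagonist of BMP and Wnt signals, had 72.1 and 75.5 against 26.5 and 33.4 CPM. *Mcam* (CD146), a mural adhesion molecule and coreceptor of PDGFRB, had 357 and 291 against 196 and 200 CPM (log2 fold change -0.70, SE 0.189). *Ptn* and *Sostdc1* were also lower in the other cells, where they passed the test (log2 fold change -0.83 and -0.89, edgeR adjusted p = 0.0467 and 0.0435).

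**Figure D4:**
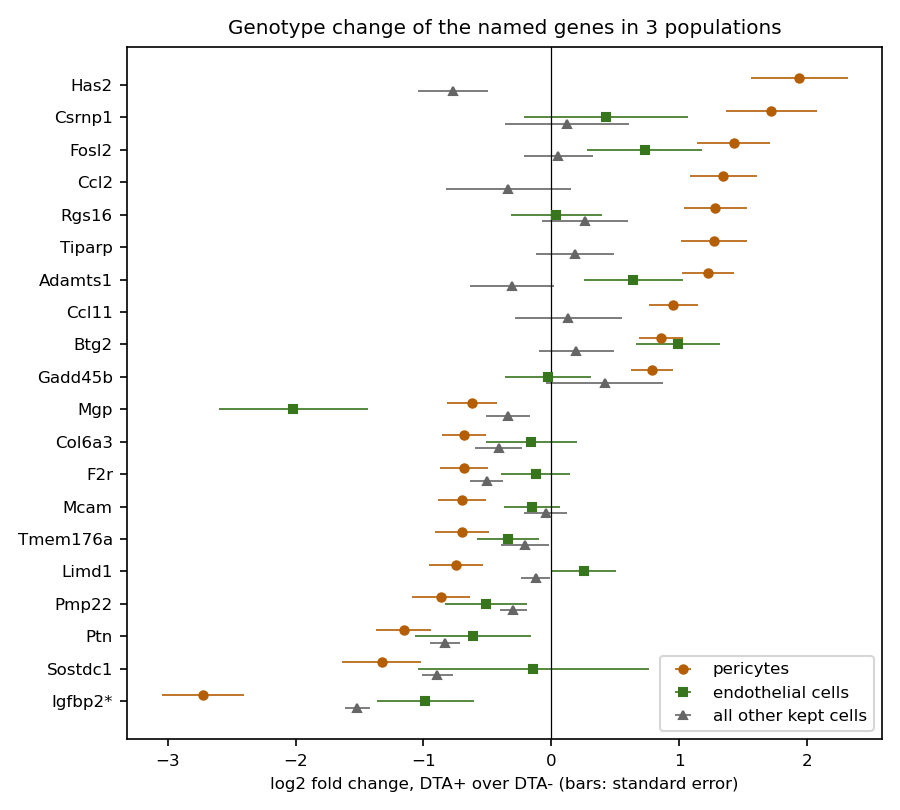
Log2 fold change of DTA+ over DTA- with its standard error (x axis) for *Igfbp2* (asterisk, called in pericytes) and genes next in rank in either direction, in pericytes, endothelial cells and all other kept cells; a missing symbol means that the gene was too low to be tested there. *Igfbp2* is lowest, at -2.72 in pericytes, and *Has2* highest in pericytes, at 1.94, where it is -0.77 in the other cells.

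The pericyte genes of the rule are described without a test. *Higd1b* had the largest difference, with 266 and 525 CPM in DTA- and 175 and 140 CPM in DTA+ pericytes (log2 fold change -1.35). *Cspg4*, at 201 and 223 against 145 and 148 CPM, and *Notch3*, at 392 and 339 against 280 and 300 CPM, did not overlap either. *Rgs5* (2847 and 3238 against 2785 and 2810 CPM) differed by -0.12 on the log2 scale, also without overlap. *Kcnj8* and *Abcc9* overlapped. Of the 25 further pericyte markers, 22 were tested and 0 called; 1 was higher and 3 lower at an unadjusted p under 0.05 by edgeR, and the median log2 fold change was -0.04. *Ndufa4l2* had 1533 and 1594 against 1026 and 1241 CPM (-0.47) and *Pdgfrb* 508, 441, 480 and 367 CPM (-0.15).

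The pathways that hold pericytes on vessels had no called member. With 0.0308% of all genes called, nothing is read from the absence of calls in these and the following lists. For PDGF signalling, 7 of 9 genes were tested, and the median log2 fold change was 0.04. *Pdgfb*, the ligand, had at most 38.6 CPM in pericytes. For Notch, 11 of 21 genes were tested with a median of 0.02; *Jag1*, a ligand, had 154, 184, 164 and 186 CPM, the target *Heyl* 122 and 89.5 against 127 and 142 CPM, and the target *Hes1* 160 and 132 against 205 and 173 CPM. For angiopoietins, VEGF and sphingosine 1-phosphate, 10 of 16 genes had a median of 0.17, and *Angpt1*, the pericyte ligand of the endothelial receptor TEK, had 34.5, 57.9, 27.8 and 45.9 CPM. None of the members of these 3 lists had an unadjusted p under 0.05. In the TGF-beta and BMP list 20 of 22 genes were tested with a median of -0.05: *Smad7*, an inhibitor, and *Smad5* were higher, and *Id2*, a target, and *Acvrl1*, a receptor, lower at an unadjusted p under 0.05, with edgeR adjusted p from 0.797 to 0.900.

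Genes of vessel tone and matrix come next. Of 26 vasoactive genes 17 were tested, with 0 called and a median log2 fold change of 0.07. *Ednra*, the receptor for endothelin-1, had 97.2 and 118 against 153 and 156 CPM (log2 fold change 0.50, SE 0.207, edgeR adjusted p = 0.886). *Itpr1* was the other gene higher and *Plcb4* the gene lower at an unadjusted p under 0.05. Of 24 basement membrane genes and their receptors 19 were tested, with 0 called and a median of -0.17; *Col4a1*, the main collagen of that sheet, had 2213, 2607, 2627 and 2055 CPM. *Fn1*, fibronectin, had 207 and 198 against 262 and 338 CPM (log2 fold change 0.56), and *Lama2* 59.6 and 54.4 against 39.0 and 25.03 CPM (-0.77). Of the smooth muscle genes 16 of 18 were tested, with 0 called and a median of 0.00; *Acta2* had 2185 and 2288 against 2974 and 2603 CPM (log2 fold change 0.32, SE 0.126).

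All 24 immediate-early and heat shock genes were tested. None was called, 11 were higher and 1, *Hspa1a*, lower at an unadjusted p under 0.05 by edgeR, and 11 did not overlap with DTA+ higher (17.3% over all genes). The median log2 fold change was 0.49, against 0.36 in endothelial cells and -0.14 in the other cells. *Klf2*, a transcription factor, had 354 and 453 against 716 and 640 CPM, and *Socs3*, a brake on cytokine signals, 75.2 and 235 against 383 and 325 CPM. The summed level was 10480 and 18101 CPM in DTA- and 21832 and 19862 CPM in DTA+. The first DTA- sample was far below the other 3, and the median was 0.16 without it and 0.97 without the second DTA- sample. Of 16 chemokine and cytokine genes 10 were tested, with 0 called, 5 higher and 1 lower at an unadjusted p under 0.05 and a median of 0.81 (0.65 without the first and 1.65 without the second DTA- sample). *Cxcl10*, which interferons induce, had 25.1 and 98.3 against 554 and 111 CPM, and *Cxcl1* 116 and 385 against 863 and 446 CPM, each led by the first DTA+ sample. Immediate-early genes also respond to tissue dissociation, and its part was not tested.

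Since the adrenal glands are missing in DTA+ embryos, genes induced by glucocorticoids were listed. Of 22 such genes, 13 were tested in pericytes, with 0 called, 4 higher and 1 lower at an unadjusted p under 0.05 and a median log2 fold change of 0.19, against -0.46 in the other cells. *Fkbp5*, a chaperone of the receptor, had 18.8 and 29.8 against 9.75 and 14.6 CPM in pericytes (log2 fold change -1.11, edgeR adjusted p = 0.900). In the other cells it fell by 2.57 on the log2 scale (edgeR adjusted p = 0.00138), and the difference between the populations did not pass (edgeR adjusted p = 0.361). *Mt1*, a metallothionein, had 266 and 297 against 540 and 457 CPM (log2 fold change 0.82, SE 0.179, edgeR adjusted p = 0.164), and *Cebpd*, a transcription factor, 210 and 256 against 388 and 484 CPM (0.88, SE 0.195, 0.167). *Nr3c1*, the glucocorticoid receptor, had 69.0, 86.0, 96.1 and 79.3 CPM (log2 fold change 0.16). Of 13 steroid receptors and enzymes 4 were tested, with 0 called and a median of -0.09; *Srd5a3*, a reductase, had 25.1 and 19.3 against 12.5 and 6.26 CPM.

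The remaining lists had no called member. Of 20 hypoxia and glycolysis genes 15 were tested (median -0.06), with *Ndufa4l2* lower at an unadjusted p under 0.05; *Higd1b*, which is also on the list, belongs to the rule. Of S phase genes 15 of 16 were tested with a median of -0.24, and 7 did not overlap with DTA+ lower (17.7% over all genes); *Gins2*, a subunit of the replicative helicase, had 59.6 and 47.4 against 20.9 and 18.8 CPM (edgeR adjusted p = 0.353). Of G2/M genes 15 of 16 were tested with a median of -0.06. Of 30 patterning genes 20 were tested with a median of 0.03; the vessel and genital factors *Ebf1* (1342, 1341, 1293 and 1337 CPM), *Nr2f2* (398, 439, 479 and 469 CPM) and *Isl1* (119, 112, 94.7 and 125 CPM) had log2 fold changes of -0.03, 0.18 and -0.09. Of 12 fibroblast genes 11 were tested, with 0 called and a median of -0.20, which was 0.49 without the second DTA- sample.

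Whether a genotype change was particular to pericytes was asked with an interaction term, which tests the difference between the change in pericytes and that in another population of the same samples. Against endothelial cells, 4 of 7940 genes (0.0504%) differed by edgeR: *Isg15*, *Fn1* and *Adarb1* changed more upwards in pericytes and *Igfbp2* more downwards. Without the first and second DTA- and the first DTA+ sample the count was 12, 13 and 2. *Fn1* had 200 and 189 CPM in DTA- and 253 and 317 CPM in DTA+ pericytes, while endothelial cells had 232 and 233 and then 160 and 138 CPM (uncorrected; difference 1.24, SE 0.262, edgeR adjusted p = 0.0330), and without the first or the second DTA+ sample it did not pass (edgeR adjusted p = 0.0557 and 1.0). *Isg15*, an interferon-induced gene, rested on 1 sample, with 3.03, 23.4, 140 and 17.6 CPM in pericytes. Of its UMIs in the first DTA+ sample, 104 in all, 24 lay in 1 cell, and without that sample the edgeR adjusted p was 1.0. *Igfbp2* did not pass without the first DTA- or without the second DTA+ sample, nor *Adarb1* without any 1 of the 4. In cells with at least 4 pericyte genes 4 genes were called, all with the higher change in pericytes, and *Isg15* was the only 1 of the first 4 among them; the difference for *Igfbp2* was then -0.524 (edgeR adjusted p = 1.0).

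Against all other kept cells, 100 of 15320 genes (0.653%) differed by edgeR, 82 with a higher and 18 with a lower change in pericytes. The 18 include *Rgs5* and *Abcc9*, whose detection chose the pericytes and removed cells from the comparison group, so that nothing is read from these calls; 16 lower genes remain without them, *Igfbp2* among them. Without the first DTA-, the first DTA+ and the second DTA+ sample the count was 64, 61 and 44. Of the 82, 78 were tested in both populations separately, and 59 of these had a fold change above 0 in pericytes and below 0 in the other cells. None of them was called in pericytes alone and 4 were called in the other cells alone. *Acta2* had 2114, 2179, 2873 and 2445 CPM in pericytes and 81.0 and 93.7 against 25.7 and 15.01 CPM in the other cells (uncorrected; difference 2.55, SE 0.151, edgeR adjusted p = 7.78e-60). The 78, 119, 18 and 6 contractile cells among the other cells held 1864, 2096, 317 and 63 of the 3201, 3514, 854 and 574 *Acta2* UMIs there. The difference without these cells was not tested. *Mt1* (difference 2.92) had 83.8 and 177 against 45.8 and 21.3 CPM in the other cells. It had 438, 467, 423 and 444 CPM in the macrophage gate and 247, 185, 351 and 226 CPM in the epithelial gate. *Mt2* (difference 3.23) had 11.5 and 29.0 against 5.17 and 2.14 CPM in the other cells, and in pericytes 9.10, 26.8, 35.0 and 23.5 CPM. Against endothelial cells *Acta2*, *Mt1*, *Mt2*, *Actg2*, *Has2* and *Cxcl10* did not pass (edgeR adjusted p from 0.0865 to 0.894). Their differences are to the pooled other cells and are not shown to be particular to pericytes. The called genes included 10 of 24 immediate-early genes, 6 of 18 smooth muscle genes and 6 of 22 glucocorticoid genes. They also included 4 of 15 chemokine genes, and all of these had the higher change in pericytes. Of 6 mast cell genes 3 were called, *Tpsb2*, *Cpa3* and *Cma1*, with the lower change. Their differences of -4.12, -5.04 and -3.54 became 1.87, -0.726 and -0.307 without the first DTA- sample.

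**Figure D5:**
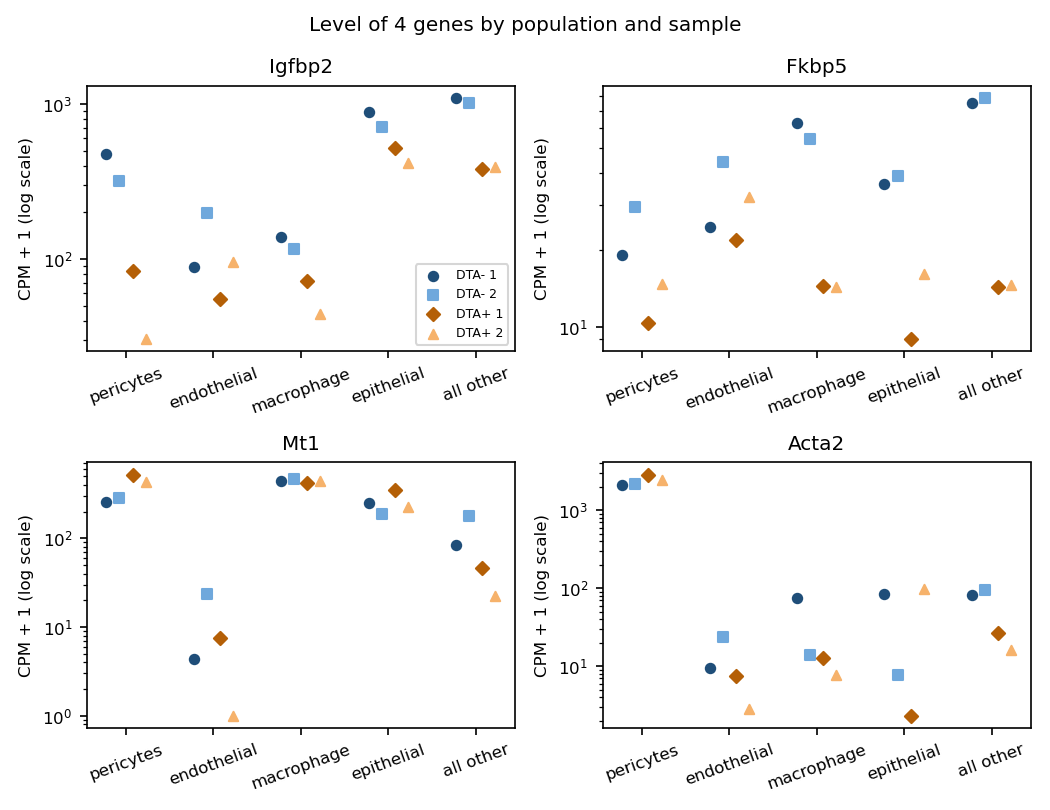
Level of *Igfbp2*, *Fkbp5*, *Mt1* and *Acta2* (CPM plus 1, uncorrected, log axes that do not start at 0) in pericytes, endothelial cells, cells with at least 3 macrophage or 3 epithelial genes and all other kept cells, 1 symbol per sample. *Igfbp2* and *Fkbp5* are lower in DTA+ than in DTA- samples both in pericytes and in the other cells, with a difference in change of -1.17 for *Igfbp2* (log2, pericytes minus other cells), while *Mt1* and *Acta2* are higher in DTA+ pericytes and lower in the other cells.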

How the data were processed

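Single-cell 3' libraries of 2 DTA- and 2 DTA+ samples of E16.5 penis were analysed. The authors sequenced 10x Genomics libraries and aligned them to mm10 with reporter sequences added; the submitters' processing notes and the file headers name Cell Ranger 4.0.0. What they deposited for each sample is a sparse matrix of raw UMI counts over 32287 features, plus 2 lists naming its features and barcodes (other text, not measurements). The members, gene lists and tests were chosen with earlier results of these data known.

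No doublet caller was run; cells passing both gene sets and cells above 10000 UMIs were counted instead. Populations were set by the gene rules given, and macrophage and epithelial gates by 3 or more genes of their lists. UMIs of each population were added up within a sample, and edgeR 4.0.16 in R 4.3.3 (TMM, filterByExpr, glmQLFit and glmQLFTest with genotype only, Benjamini-Hochberg over all genes tested) was run on the sums, and on differences between populations with sample as block and a population by genotype term. DESeq2 1.42.0, edgeR's likelihood ratio test, other cell limits, thinning to 2000 UMIs, equal cell numbers, a replicate block and leaving out each sample were alternatives; that without an upper UMI limit was added after seeing the data. Exact binomial intervals are Clopper-Pearson; intervals and floors cover counting error only. Named genes were the rule genes, the 15 leading markers (at least 20 CPM in every sample), the members of the lists, every called gene, the 10 lowest-p uncalled genes in each direction without overlap (mean at least 50 CPM), the 10 most variable genes and up to 10 called genes of each interaction. Some genes meeting this rule are not reported here. *Adarb1*, *Gt(ROSA)26Sor* and *Nr5a1* were named after their values were seen. The fits were tested on simulated data. Gene positions are from GENCODE on GRCm38 and promoters from RefSeq on GRCm38.p6. Python 3.11.15, numpy 2.4.6, pandas 2.3.3, scipy 1.17.1 and matplotlib 3.10.9 were used.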

Additional observations from a re-analysis of the deposited data

Results flagged for a closer look

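Genotype changes that differed between pericytes and another population by edgeR's interaction test are given here as values on the log2 scale, pericytes minus the other population. Against endothelial cells these were *Isg15* (2.90), *Fn1* (1.24), *Adarb1* (4.17) and *Igfbp2* (-1.73). *Adarb1*, an RNA-editing enzyme, rested on 0, 2, 13 and 11 UMIs in pericytes and did not pass when any sample was left out (edgeR adjusted p = 0.0633, 0.313, 0.0842 and 0.319). Without the first DTA- and without the second DTA+ sample the difference for *Igfbp2* was -0.995 and -0.846 (edgeR adjusted p = 0.547 and 1.0). *Isg15* was 1.59 without the first DTA+ sample (edgeR adjusted p = 1.0).

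Against all other kept cells, the named genes with a higher change in pericytes were *Acta2* (2.55), *Mt1* (2.92), *Actg2* (3.26), *Has2* (2.74), *Cxcl10* (2.54) and *Mt2* (3.23), besides *Iigp1*, an interferon-induced GTPase fitted at 11.4. None of these passed against endothelial cells. *Iigp1* had 72 UMIs in 7 pericytes of the first DTA+ sample and 0 UMIs in the pericytes of the other 3, so its fitted value is no measure of size. *Cxcl10* had 8, 56, 398 and 53 UMIs, and the first DTA+ sample also led it.

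*Igfbp2* (-1.17) had a lower change in pericytes than in the other cells, which did not pass without the second DTA+ sample (-0.726, edgeR adjusted p = 0.383), after thinning to 2000 UMIs (-0.560, edgeR adjusted p = 1.0) or in cells with at least 4 pericyte genes (-0.08, edgeR adjusted p = 1.0). The mast cell protease genes *Tpsb2* (-4.12), *Cpa3* (-5.04) and *Cma1* (-3.54) also had a lower change in pericytes. Most of their UMIs lay in the first DTA- sample, with 79 of *Tpsb2* in 3 cells, 47 of *Cpa3* in 2 cells and 48 of *Cma1* in 5 cells, where 4 pericytes carried at least 3 genes of another cell type. Without that sample none of these 3 passed (edgeR adjusted p = 1.0 for each).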

How the results depend on the processing

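The count of genes called between the genotypes in pericytes, 2 in the analysis as given, was unstable. It was 30 with edgeR's likelihood ratio test, 1 on library totals without TMM, 69 without a filter on low counts, 4 at no more than 7500 UMIs per cell, 1 without an upper limit, 25 with at least 4 pericyte genes, 7 with fewer than 2 endothelial genes, 4 at no more than 5% hemoglobin, 1 at no more than 10% mitochondrial UMIs, 5 without cells holding 3 smooth muscle genes and 23 with equal cell numbers. It was 0 after thinning to 2000 UMIs by edgeR's quasi-likelihood test, with 166 genes at an unadjusted p under 0.05. Leaving out each sample gave 0 to 79; with 0 called, edgeR left 233 genes at an unadjusted p under 0.05. DESeq2 called 3. Neither *Igfbp2* nor *tdTomato* was among the genes called by DESeq2 or at no more than 7500 UMIs. The cause of these shifts was not tested, except that thinning left 2737 genes to test. Against endothelial cells the count of 4 became 8 with the likelihood ratio test, 7 without a filter, 0 after thinning (edgeR; 200 at an unadjusted p under 0.05) and 2 to 13 without single samples. It stayed at 4 with at least 4 pericyte genes, but 1 of the 4 genes was still called: *Fn1* (edgeR adjusted p = 0.0527), *Adarb1* (0.268) and *Igfbp2* (1.0) did not pass. Against all other cells the count of 100 became 27 after thinning and 44 to 75 without single samples.

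Replicate numbers only name the samples: deviations of same-numbered samples had a correlation of -0.08 over 6131 genes, given as a description. With the replicate number as a block, edgeR called 0 genes, with 277 at an unadjusted p under 0.05, and *Igfbp2* had a log2 fold change of -2.86 (edgeR adjusted p = 0.105).

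The difference in share, 0.195 percentage points, was -0.00819 when the rule was applied after thinning and -0.0949 to 0.484 without single samples, -0.0753 among them. Per 100 endothelial cells, 25.6 became -1.55 after thinning and 4.42 to 46.7 without single samples. *Tpsb2* against other cells was -5.78 to 1.87 without single samples (1.87 without the first DTA-) and *Cpa3* 7.66 after thinning, with an edgeR adjusted p of 1.0 for both; the cause was not tested. *Igfbp2* kept its direction under every alternative run, from -1.58 to -3.69, and was -2.44 without the first DTA- sample. It did not pass with DESeq2 (adjusted p = 0.0978), after thinning (edgeR adjusted p = 0.336), at no more than 7500 UMIs (0.0784) or without an upper limit (0.0629). *tdTomato* did not pass with DESeq2 (adjusted p = 0.0978), without TMM (edgeR adjusted p = 0.0589) or at no more than 10% mitochondrial UMIs (0.0679). Nor did it pass at no more than 7500 UMIs (0.221) or with the replicate block (0.685). The first DTA- sample rests on 329712 UMIs of 47 pericytes, the fewest of the 4. Equal cell numbers gave 23 calls of 4527 genes tested, both genes among them, and thinning 0 of 2737. The part of depth in these counts was not tested.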
